A study of Mus musculus with 6 samples.

Results

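The genes described here encode nuclear-encoded subunits of the mitochondrial respiratory chain and ATP synthase, apart from Atp5s and Atp5sl, which are not structural subunits. They were chosen by symbol alone, leaving out pseudogenes. The symbols were the numbered Nduf a, b, c, s and v series, the 4 Sdh subunits, Uqcr, Cox4 to Cox8 and Atp5. This gave 84 of the 24067 genes in the table, and 81 of them passed the filter on low counts. Subunit genes with other symbols, such as Ndufab1 of complex I, are not among the 84. RNA-seq gene counts came from tongues of 6 C57BL/6 mice of about 34 weeks, 3 of them wild type (WT) for HuR by their labels and 3 HuR knockout (KO). Every mouse had received the carcinogen 4NQO (4-nitroquinoline 1-oxide), which causes tumours of the mouth, for 16 weeks, and 12 more weeks followed before the tissue was taken. The comparison asked how transcripts differ between carcinogen-exposed tongues with and without HuR, the RNA-binding protein encoded by Elavl1. Each library holds tongue tissue with tumour, so epithelium, muscle and other tissues are mixed in it. How and in which cells Elavl1 was deleted is not given in the sources used here.

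Elavl1 itself stood at 65.0, 59.3 and 78.4 counts per 1000000 (CPM) in KO-labelled tongues and at 61.7, 55.8 and 48.0 CPM in WT-labelled tongues. The groups overlapped (log2 fold change 0.29 ± 0.15, edgeR adjusted p = 0.180). Elavl1 counts thus give no check of the genotype, and the groups go by their labels only, as KO-labelled and WT-labelled. A total over the gene cannot show whether a part of it was deleted. The libraries held 29543352 to 51520707 counts. By Xist and 4 Y-linked genes, KO replicates 2 and 3 were female and the other 4 animals male. The labelled tissue carried the markers of tongue, with 28 of 28 fast muscle genes and 15 of 15 keratinocyte genes measured. The labels number the replicates of a group and say no more of them, so a p-value here measures only the spread among these 6 tissues, which may in part be technical.

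The respiratory chain sits in the inner mitochondrial membrane. Complex I takes electrons from NADH and complex II takes them from succinate, complex III passes them to cytochrome c, and complex IV hands them to oxygen. Complexes I, III and IV pump protons, and ATP synthase, called complex V, uses the proton gradient to make ATP. Most subunits are encoded in the nucleus and the rest in mitochondrial DNA, whose genes are not analysed here. Striated muscle is rich in mitochondria, and 3 subunits of complex IV have a muscle isoform beside a ubiquitous one: COX6A (Cox6a2 and Cox6a1), COX7A (Cox7a1 and Cox7a2) and COX8 (Cox8b and Cox8a).

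In each of the 5 complexes the median fold change was below 0 in KO-labelled tongues, and few genes passed the test one by one. Of the 81 genes tested, 79 had a log2 fold change (KO-labelled over WT-labelled) below 0, with a median of -0.64 and quartiles of -0.74 and -0.55. The median over all 15903 genes tested was 0.016, and 48.7% of them were below 0. For 64 of the 81 members the fold change lay between -0.85 and -0.5, for 6 it was lower still, and for 4 it lay between -0.4 and 0 (Ndufa4, Ndufa7, Atp5l and Cox7a2l, the last named after its values were seen). The 2 above 0 were Cox6a1 and Cox8a. At an adjusted p under 0.05 by edgeR's quasi-likelihood test, 8 members were lower and 0 higher, where 7.43% of all genes tested were called lower and 4.81% higher. The 8 were Ndufs1 and Ndufb2 of complex I, Sdhb and Sdhc of complex II, Uqcrc2 of complex III, Cox7a1 and Cox7c of complex IV and Atp5s of the Atp5 series. A further 49 members had adjusted p-values between 0.05 and 0.1 and a fold change below 0, against 9.51% of all genes. At an unadjusted p under 0.05, 69 members were lower and 1 was higher, against 20.3% and 18.2% of all genes. DESeq2 called 59 members lower and 0 higher, against 15.9% lower and 12.2% higher among all genes it tested, and limma-voom called 15 lower and 0 higher, against 7.99% and 6.14%. The values of the 3 KO-labelled tongues lay entirely below those of the 3 WT-labelled ones for 48 members, against 22.1% of all genes tested.

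In tissue RNA, fewer cells of a type and less RNA per cell cannot be told apart. The 8 calls depended on which libraries were kept. By edgeR 0 members were lower without KO replicate 1, 2 or 3 or WT replicate 2 or 3, with 22, 32, 69, 41 and 38 lower at an unadjusted p under 0.05. The shares of all genes at that unadjusted p were 14.2, 14.4, 18.2, 14.5 and 15.2% in the same order. Without WT replicate 1, 74 members were lower and 1 higher by adjusted p, against 18.1% and 17.9% of all genes. The median was -0.44 when WT replicate 3 was left out and -0.81 when WT replicate 1 was, with the other 4 between them.

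The members varied together from library to library as well as between the groups. Across the 81 genes the fold change was lower where the mean level was higher (Spearman's rho -0.35), as a description of genes that share the same libraries. Without the members that have a near-identical copy elsewhere in the annotation, 7 of 65 were lower, against 7.43% of all genes, and the median was -0.66. KO replicate 1 was the lowest library for 76 of the 81 genes and WT replicate 3 the highest for 78. The median deviation of the members from each gene's mean over the 6 libraries was -0.52, -0.33 and -0.10 on the log2 scale in KO replicates 1, 2 and 3 and -0.061, 0.33 and 0.69 in WT replicates 1, 2 and 3. KO replicate 3 and WT replicate 1 thus lay next to each other, and the SD of these medians within the groups was 0.30. Together the 84 genes held 2.19, 2.48 and 2.85% of all counts in KO-labelled tongues and 2.997, 3.55 and 4.10% in WT-labelled tongues. The groups did not overlap in this share (2.51 ± 0.332% against 3.55 ± 0.549%, SD, n = 3, 2-sided exact permutation p = 0.1, the smallest that 3 against 3 libraries allow).

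**Figure D1:**
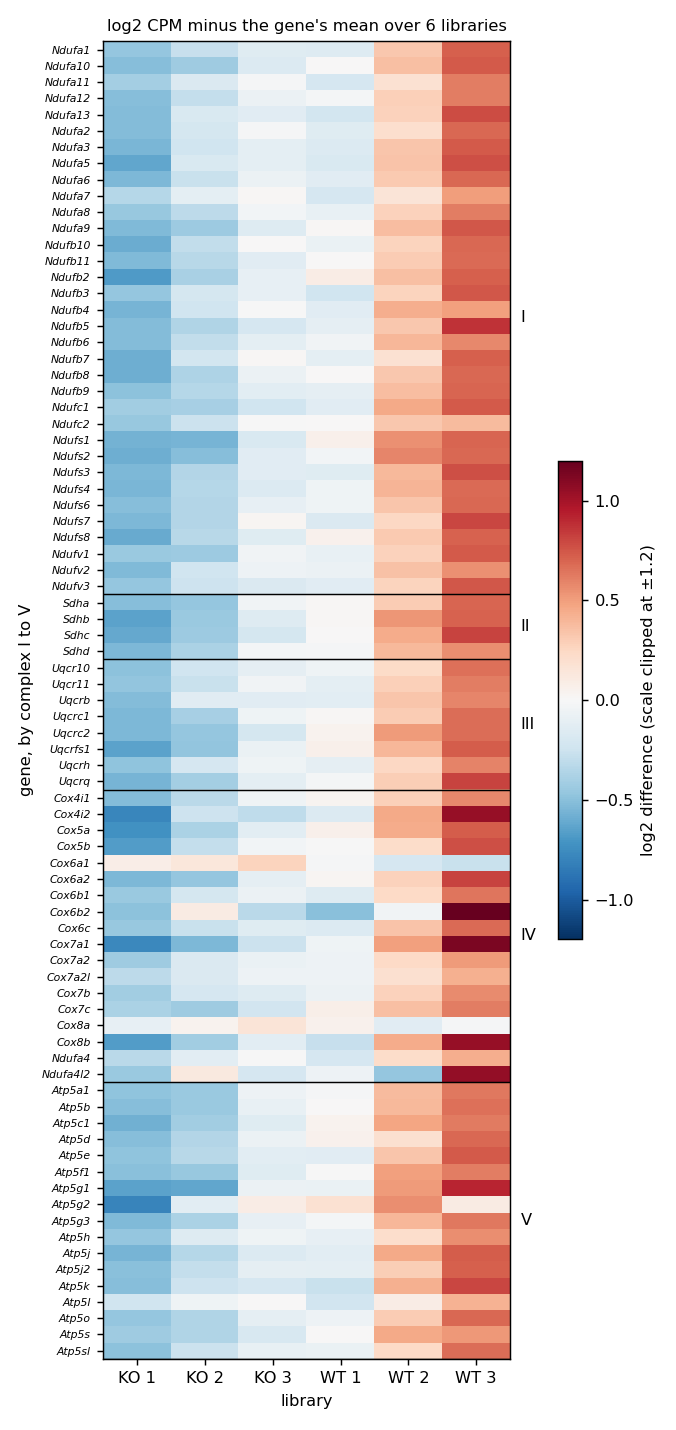
Heat map of log2 CPM minus the gene's own mean over the 6 libraries, for the 81 tested genes in rows, ordered by complex I to V, and the 6 libraries in columns. Blue stands for below and red for above the gene's mean, and KO replicate 1 is the lowest library for 76 genes and WT replicate 3 the highest for 78, while Cox6a1 runs the other way.

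Complex I takes in NADH through its core subunits, which carry the flavin and the iron-sulphur clusters, and holds many accessory subunits around them. Of the 34 complex I genes tested, 2 were lower and 0 higher (adjusted p under 0.05), all 34 had a fold change below 0, and the median was -0.63. The calls of this and of every other complex stand beside 7.43% of all genes called lower and 4.81% called higher. The median was -0.72 for the 7 core genes and -0.63 for the 27 accessory genes. Ndufs1, the largest iron-sulphur subunit, stood at 356, 358 and 465 CPM in KO-labelled tongues and at 549, 772 and 857 CPM in WT-labelled tongues. All 3 KO-labelled values lay below all 3 WT-labelled values (log2 fold change -0.88 ± 0.22, edgeR adjusted p = 0.0444). Ndufb2, an accessory subunit of the membrane arm, stood at 60.6, 73.8 and 90.8 against 103, 125 and 159 CPM (-0.78 ± 0.20, edgeR adjusted p = 0.0469), again with no overlap. Ndufs8, a core iron-sulphur subunit, missed the threshold with 100.4, 121 and 138 against 158, 189 and 249.7 CPM (-0.73 ± 0.20, edgeR adjusted p = 0.0509). Ndufa7, an accessory subunit, had the largest p-value of the complex, and its groups overlapped at 81.8, 95.1 and 104 against 89.7, 115 and 146 CPM (-0.32 ± 0.19). Ndufs5 is listed at 0 counts in every library and is not described further.

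Succinate dehydrogenase, complex II, links the citric acid cycle to the chain and has no subunit from mitochondrial DNA. Its 4 genes had a median of -0.77, and for each KO-labelled tongues lay below WT-labelled tongues. Sdhc, a membrane anchor, stood at 216, 245 and 288 CPM in KO-labelled tongues against 333, 453 and 584 CPM in WT-labelled tongues (-0.87 ± 0.23, edgeR adjusted p = 0.0483). Sdhb, the iron-sulphur subunit, stood at 280.2, 321 and 394 against 442, 629.7 and 713 CPM (-0.84 ± 0.23, edgeR adjusted p = 0.0497, or 0.0505 with DESeq2's size factors). The flavoprotein Sdha (-0.69 ± 0.25) and the second anchor Sdhd (-0.63 ± 0.21) did not pass, with edgeR adjusted p-values of 0.0870 and 0.0748.

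Complex III carries electrons from ubiquinol to cytochrome c. Among its 8 Uqcr genes 1 was lower, 0 were higher, and the median was -0.62. Uqcrc2, a large core protein on the matrix side, stood at 463, 489 and 582 CPM in KO-labelled tongues and at 695, 959 and 1075 CPM in WT-labelled tongues (-0.83 ± 0.22, edgeR adjusted p = 0.0476). Uqcrfs1, the Rieske iron-sulphur protein, differed by -0.80 ± 0.24 and the small subunit Uqcrq by -0.75 ± 0.24, both without overlap and with edgeR adjusted p-values of 0.0583 and 0.0659. Uqcrh, the hinge protein, had the largest p-value (-0.51 ± 0.21), and its groups overlapped.

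ATP synthase has a catalytic F1 head, a rotating c-ring in the membrane and a stalk that holds the 2 together. Of the 17 Atp5 genes tested, 1 was lower and 0 were higher, against 7.43% and 4.81% of all genes, and the median was -0.67. Atp5sl, counted among the 17, is not a structural subunit. The call was Atp5s, which is named as an ATP synthase factor and is not one of its structural subunits. It stood at 9.28, 9.71 and 10.9 CPM in KO-labelled tongues and at 12.5, 17.1 and 17.9 CPM in WT-labelled tongues (-0.67 ± 0.17, edgeR adjusted p = 0.0475). Atp5b, the catalytic beta subunit, was picked out after its values were seen, since it had the highest mean CPM of all members in both groups. It stood at 2996, 3143 and 4022 against 4285, 5620.5 and 6753 CPM, with no overlap, and did not pass (-0.71 ± 0.28, edgeR adjusted p = 0.103). The peripheral stalk gene Atp5f1 (-0.75 ± 0.21) and the gamma subunit gene Atp5c1 (-0.76 ± 0.22) missed the threshold with edgeR adjusted p-values of 0.0512 and 0.0539. Atp5l, subunit g, overlapped between the groups at 9.30, 10.6 and 10.98 against 9.37, 11.7 and 14.7 CPM (-0.21 ± 0.19). Its reading frame has near-identical copies in 8 other annotated genes, so its counts are uncertain.

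The c-ring subunit is made from 3 genes that encode the same mature protein with different import signals. Per kilobase of exon, Atp5g3 stood at 345 ± 53.5 CPM in KO-labelled tongues and 554 ± 124 CPM in WT-labelled tongues, and Atp5g1 at 10.3 ± 2.46 and 19.5 ± 6.46 (SD, n = 3). The exon length used for Atp5g1, 4.912 kilobases, exceeds the gene's RefSeq span (chr11:96072793-96075694), so its values per kilobase may be too low. By counts not divided by length, Atp5g1 stood at 0.0606 (KO replicate 2) to 0.0872 (WT replicate 3) per count of Atp5g3. Atp5g1 had a log2 fold change of -0.92 ± 0.26 and Atp5g3 one of -0.68 ± 0.23, with edgeR adjusted p-values of 0.0549 and 0.0796. The log2 ratio of their counts within a library overlapped between the groups (-3.91 ± 0.138 against -3.69 ± 0.167, SD, n = 3, exact permutation p = 0.2). Atp5g2 had 29 to 81 counts in a library and a fold change of -0.55 ± 0.32.

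**Figure D2:**
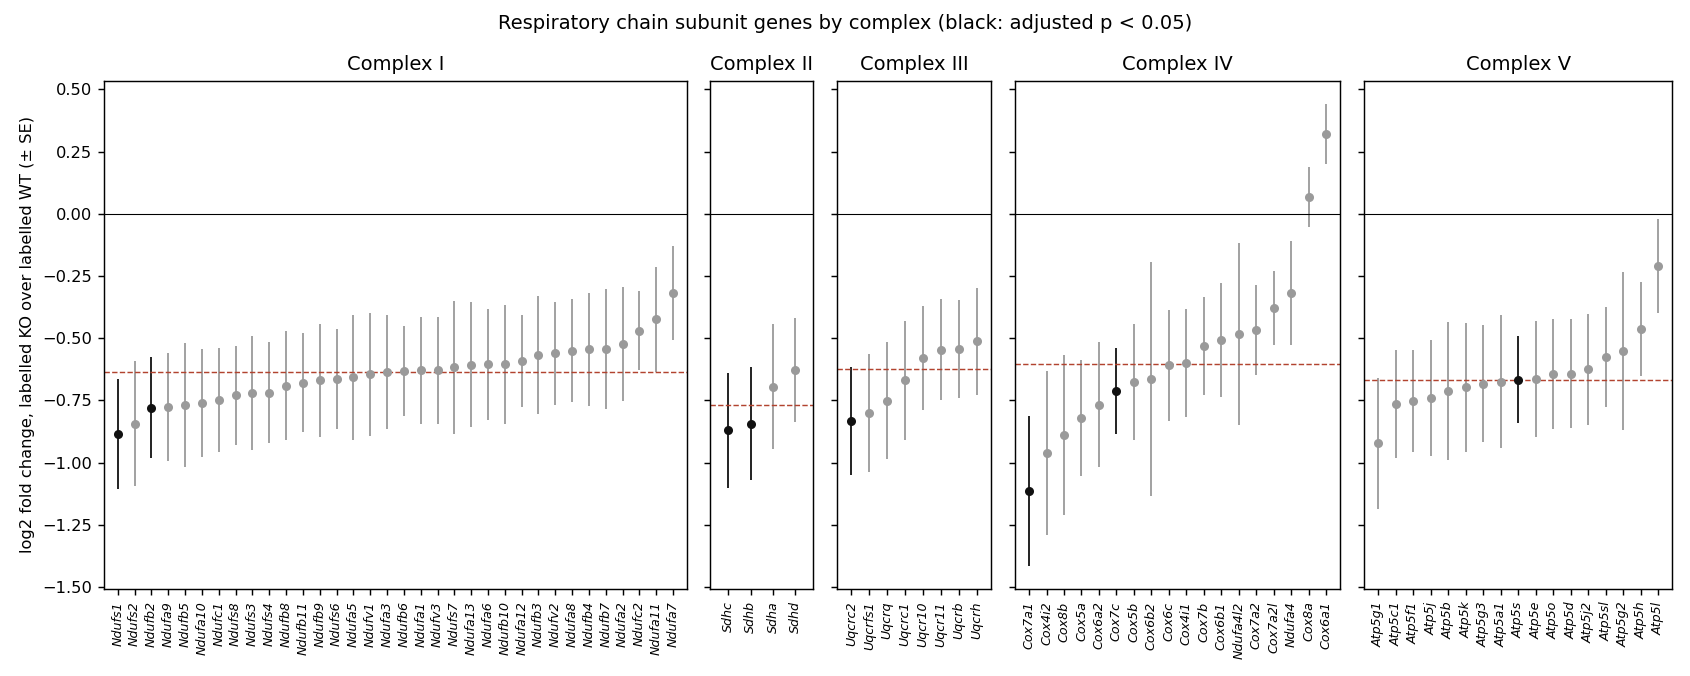
Log2 fold change of KO-labelled over WT-labelled with its standard error for the 81 tested genes, in 1 panel per complex, sorted within it, with a dashed line at the complex's median. The 8 genes with an adjusted p under 0.05 are black, the medians lie between -0.77 (complex II) and -0.60 (complex IV), and Cox6a1 and Cox8a are the 2 points above 0.

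Complex IV, cytochrome c oxidase, was the most varied. Its 20 genes, counted here with Ndufa4 and Ndufa4l2 because the Ndufa4 protein is found in this complex, gave 18 tested genes with fold changes from -1.11 to 0.32. The SD across genes was 0.34, against 0.12 in complex I and 0.15 in complex V. Of the 18, 2 were lower and 0 higher, and the median was -0.60. Cox7c, a small subunit with a single isoform, stood at 9.22, 8.91 and 10.2 CPM in KO-labelled tongues and at 12.6, 15.4 and 18.4 CPM in WT-labelled tongues. The groups did not overlap (-0.71 ± 0.17, edgeR adjusted p = 0.0420, the smallest among the members). Cox7c has near-identical copies in 2 other annotated genes, so its counts are uncertain too. The same holds for Cox7b, with copies in 2 other genes, and for Atp5f1 and Atp5g1, with a copy in 1 each. Cox5a, a matrix-side subunit, differed by -0.82 ± 0.23 (edgeR adjusted p = 0.0544) and the main isoform of subunit 4, Cox4i1, by -0.60 ± 0.22.

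The 3 muscle isoforms had log2 fold changes of -1.11 to -0.77, of which 1 passed by edgeR and 3 by DESeq2. Their ubiquitous partners had -0.47 to 0.32, of which 0 passed by edgeR (before adjustment 1 was lower and 1 higher) or DESeq2. Of all genes tested, edgeR called 7.43% lower and 4.81% higher (20.3% and 18.2% at an unadjusted p under 0.05), and DESeq2 15.9% and 12.2%. All 3 muscle isoform genes lie on chromosome 7 in RefSeq's GRCm38.p6 annotation, Cox7a1 at chr7:30184171-30186030, Cox6a2 at chr7:128205435-128206366 and Cox8b at chr7:140898942-140900446. Cox7a1, the muscle isoform of COX7A, had the lowest fold change of all members. It stood at 195, 229.7 and 279 CPM in KO-labelled tongues and at 322, 469 and 731 CPM in WT-labelled tongues (-1.11 ± 0.30, edgeR adjusted p = 0.0498, or 0.0501 with DESeq2's size factors), with no overlap. Its partner Cox7a2 stood at 161, 193 and 205 against 208, 256 and 309 CPM (-0.47 ± 0.18, edgeR adjusted p = 0.104), a smaller difference that did not pass.

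Cox6a2, the muscle isoform of COX6A, stood at 501, 529.6 and 677 CPM in KO-labelled tongues and at 742, 883 and 1282 CPM in WT-labelled tongues (-0.77 ± 0.25, edgeR adjusted p = 0.0717). Its partner Cox6a1 had the highest fold change of all members, at 121, 126 and 138 against 113, 99.4 and 95.2 CPM (0.32 ± 0.12, edgeR adjusted p = 0.0965). It was also the 1 member whose KO-labelled tongues lay wholly above WT-labelled tongues, against 22% of all genes tested, and it passed only when WT replicate 1 was left out (0.41, edgeR adjusted p = 0.0301). Cox8b, the muscle isoform of COX8, stood at 189.9, 225 and 277 against 249, 411 and 623 CPM (-0.89 ± 0.32, edgeR adjusted p = 0.0870), and KO replicate 3 lay above WT replicate 1. Cox8a, the ubiquitous form, stood at 118, 129.9 and 141 against 131, 115 and 126 CPM, with overlapping groups and a log2 fold change of 0.068 (95% interval -0.21 to 0.35).

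Ratios of the paired isoforms within a library do not depend on how libraries are scaled. Counts of Cox6a2 per count of Cox6a1 were 4.15, 4.20 and 4.92 in KO-labelled tongues and 6.55, 8.89 and 13.5 in WT-labelled tongues. The groups did not overlap, and the difference of the mean log2 ratio was -1.06. For Cox7a1 per Cox7a2 the ratios were 1.21, 1.19 and 1.36 against 1.55, 1.83 and 2.37, also without overlap, with a difference of -0.59. For Cox8b per Cox8a they were 1.60, 1.74 and 1.96 against 1.90, 3.57 and 4.96, where KO replicate 3 and WT replicate 1 crossed, with a difference of -0.87. The 2-sided exact permutation p-values were 0.1, 0.1 and 0.2 (0.15, 0.15 and 0.20 adjusted over the 3 pairs), and 3 against 3 libraries cannot go below 0.1. The muscle isoform had the higher count of each pair in every library. Per kilobase of exon in WT-labelled tongues, Cox6a2 stood at 1425 ± 412 CPM against 146 ± 13.5 for Cox6a1, Cox7a1 at 949 ± 388 against 273 ± 53.9 for Cox7a2, and Cox8b at 1187 ± 521 against 200.03 ± 13.3 for Cox8a (SD, n = 3). In KO-labelled tongues the values were 837 ± 139 against 183 ± 12.3 for COX6A, 438 ± 79.6 against 197 ± 23.9 for COX7A and 641 ± 122 against 209.6 ± 18.2 for COX8.

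**Figure D3:**
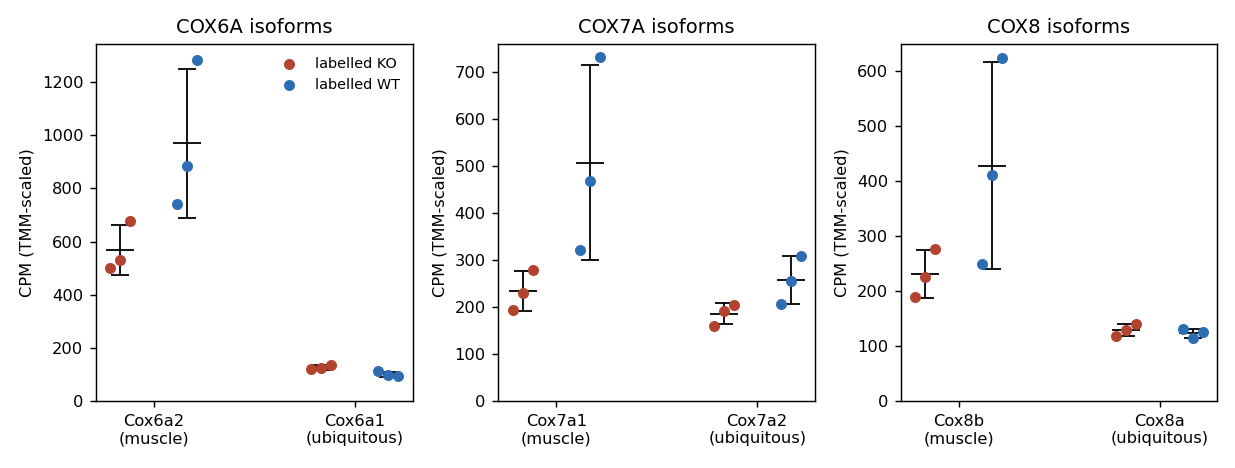
Normalised counts (CPM, on a linear axis from 0) of the muscle and the ubiquitous isoform of COX6A, COX7A and COX8 in each library, with the mean and SD of 3 libraries per group as bars. KO-labelled points lie below WT-labelled points for Cox6a2 and Cox7a1, Cox6a1 runs the other way, and the groups overlap for Cox8b and Cox8a.

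The upstream sequences of 4 isoform genes are shown, those of the 2 members with a fold change above 0, Cox6a1 and Cox8a, and of 2 muscle isoforms below 0. The interval of Cox8a spans 0, so its sign is not settled. Each is the 250 bases before the gene's start from RefSeq for GRCm38.p6, the assembly called mm10, read 5′ to 3′ on the gene's strand. Capitals mark matches on either strand to 1 of 6 motifs: the E-box form CAGCTG bound by myogenic factors, the MEF2-type motif (CTA and TAG with 4 bases between), the TATA box TATAAA, the ETS core CCGGAAG, the NRF1-type motif (GCGCA, any base, then GCGC) and the oestrogen-related receptor half-site AAGGTCA. No 2 matches overlap in these 4 sequences.
Cox7a1 (chr7:30183921-30184170, plus strand): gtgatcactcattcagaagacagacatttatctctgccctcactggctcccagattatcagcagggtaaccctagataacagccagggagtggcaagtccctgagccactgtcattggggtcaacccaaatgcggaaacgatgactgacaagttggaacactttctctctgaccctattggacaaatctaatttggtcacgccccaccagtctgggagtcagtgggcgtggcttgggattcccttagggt
Cox8b (chr7:140900447-140900696, minus strand): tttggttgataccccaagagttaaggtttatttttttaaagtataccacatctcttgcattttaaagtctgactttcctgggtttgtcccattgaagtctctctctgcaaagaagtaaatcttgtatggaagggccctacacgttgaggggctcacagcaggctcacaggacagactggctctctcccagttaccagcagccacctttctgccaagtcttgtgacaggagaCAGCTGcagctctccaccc
Cox6a1 (chr5:115348959-115349208, minus strand): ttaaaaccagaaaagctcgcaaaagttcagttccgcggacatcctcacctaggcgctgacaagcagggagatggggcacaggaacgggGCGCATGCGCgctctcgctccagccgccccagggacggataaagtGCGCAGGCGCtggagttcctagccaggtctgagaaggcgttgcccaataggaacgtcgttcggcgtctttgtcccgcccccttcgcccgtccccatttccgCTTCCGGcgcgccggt
Cox8a (chr19:7217617-7217866, minus strand): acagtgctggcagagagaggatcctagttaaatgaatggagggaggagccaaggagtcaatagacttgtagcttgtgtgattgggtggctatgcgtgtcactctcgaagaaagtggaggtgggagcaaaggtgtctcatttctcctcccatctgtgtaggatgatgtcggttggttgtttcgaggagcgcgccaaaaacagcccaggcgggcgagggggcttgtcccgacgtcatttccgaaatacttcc
The Cox6a1 sequence held 2 NRF1-type matches and 1 ETS core, Cox8b held 1 E-box, and those of Cox7a1 and Cox8a held none of the 6. The window of Cox7a2, which is not shown, held none either. It lies at chr9:79759854-79760103, inside the gene's RefSeq span (chr9:79755241-79771422, minus strand), and so does not describe the bases before that span. NRF1 and the ETS factor GABPA are known regulators of nuclear genes for mitochondrial proteins. Over the members, 69 genes had 75 such sequences, and 18.7% held the NRF1-type motif and 16% the ETS core. Among 21263 such sequences of protein-coding genes, the shares were 5.18% and 8.98%. The E-box was in 8% of the members' sequences and 12.1% of those of coding genes, the TATA box in 9.33% and 11.6%, the MEF2-type in 1.33% and 3.06% and the receptor half-site in 6.67% and 3.59%. A match describes the letters of the window and was not tested as a binding site. Median GC content was 56% for the members and 55.6% for coding genes.

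Other isoforms and paralogs were low or varied between libraries of a group. Cox4i2, known as a lung and hypoxia isoform of subunit 4, stood at 1.72, 2.51 and 2.42 CPM in KO-labelled tongues and at 2.67, 4.13 and 6.21 CPM in WT-labelled tongues (-0.96 ± 0.33, edgeR adjusted p = 0.0794). Its log2 ratio to Cox4i1 overlapped between the groups (exact permutation p = 0.2). Cox6b2, the testis isoform of subunit 6B, had 37 to 96 counts per library (-0.66 ± 0.47), and its fold change was 0.024 without WT replicate 3. Cox6b1, the main form, differed by -0.51 ± 0.23 and overlapped. Cox7b differed by -0.53 ± 0.20 without overlap (edgeR adjusted p = 0.0922). Cox7b2 had 0 to 3 counts and Cox8c, a testis isoform, had 0 in every library, which allows a level of up to 0.0566 to 0.117 CPM, counting error only. Ndufs5, of a complex that all cells with a respiratory chain need, is listed at 0 as well, so a listed 0 is not read as absence of the RNA. Ndufa4 stood at 459, 529 and 576 CPM in KO-labelled tongues against 501, 673 and 778 CPM in WT-labelled tongues (-0.32 ± 0.21). Ndufa4l2, a hypoxia-induced paralog, stood at 21.7, 32.0 and 25.6 against 28.3, 21.4 and 61.4 CPM (-0.48 ± 0.36), and its fold change was 0.089 without WT replicate 3.

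Within the counts of the members the complexes kept nearly the same proportions. Complex V held 38.6 ± 0.723% of them in KO-labelled tongues and 39.1 ± 0.658% in WT-labelled tongues, and complex I held 25.8 ± 0.296% and 25.8 ± 0.537% (SD, n = 3). Complex II held 7.42 ± 0.195% and 7.75 ± 0.0696%, and complex IV 17.3 ± 0.516% and 16.4 ± 0.410%, both without overlap. The exact permutation p-values, 2-sided, were 0.1 for complexes II and IV, 0.2 for III, 0.5 for V and 1 for I, or 0.25, 0.25, 0.333, 0.625 and 1 adjusted over the 5. As shares of all counts, each of the 5 complexes was lower in every KO-labelled tongue than in every WT-labelled tongue (exact permutation p = 0.1 for each and after adjustment). The ratio of the means lay between 0.678 for complex II and 0.744 for complex IV.

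Skeletal muscle and keratinocyte markers also differed between the groups. The 28 fast muscle genes held 5.56, 6.04 and 7.62% of counts in KO-labelled tongues and 9.52, 12.4 and 14.7% in WT-labelled tongues, and 10 of the 28 were lower by edgeR, 0 were higher, with a median log2 fold change of -0.96 (24 lower by DESeq2). Ordered by this share, the 6 libraries stand in the same order as by the share of the members. The 15 keratinocyte genes held 5.72, 5.91 and 4.46% against 3.44, 2.95 and 1.88%, with a median of 1.10. By edgeR 0 passed in either direction, and before adjustment (p under 0.05) 9 were higher and 0 lower, against 18.2% and 20.3% of all genes. By DESeq2 10 were higher, against 12.2% of all genes. No marker of either list was at 0 in all libraries. With the mean of the fast muscle list as a covariate, 0 members passed in either direction (0 and 0 also at an unadjusted p under 0.05) and the median was 0.14, with 13 of the 81 below 0. With the keratinocyte mean, 0 members passed (0 and 0 at an unadjusted p) and the median was 0.082. With sex as a term the median was -0.86. KO replicates 2 and 3 were the only female tongues, so that fit set KO replicate 1 alone against the WT-labelled tongues. KO replicate 1 was the lowest library for 76 of the 81 members, so -0.86 cannot be read as a difference adjusted for sex. These covariates were fitted with edgeR alone. With the muscle mean and with the keratinocyte mean, 0 of all 15903 genes passed in either direction. At an unadjusted p under 0.05, 207 of all genes were lower and 206 higher with the muscle mean, and 499 and 328 with the keratinocyte mean. The shares of both lists separate the groups without overlap, so these fits cannot tell the group from the lists.

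Set against the fast muscle genes the order of the groups was the other way round. There were 0.394, 0.410 and 0.374 counts of the members per count of the fast muscle list in KO-labelled tongues and 0.315, 0.287 and 0.279 in WT-labelled tongues. The groups did not overlap, and the mean log2 ratio differed by 0.42 (exact permutation p = 0.1, 2-sided). For the 3 muscle isoforms alone the difference was 0.25 and for the 3 ubiquitous partners 0.96, both without overlap (exact permutation p = 0.1 for each). Set against the keratinocyte list, the 3 ubiquitous partners differed the other way, by -0.95 without overlap (exact permutation p = 0.1). Against the 9 slow muscle genes, which are scarce in these libraries at 0.0109 to 0.0309% of counts, the groups overlapped (0.089, exact permutation p = 0.8).

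**Figure D4:**
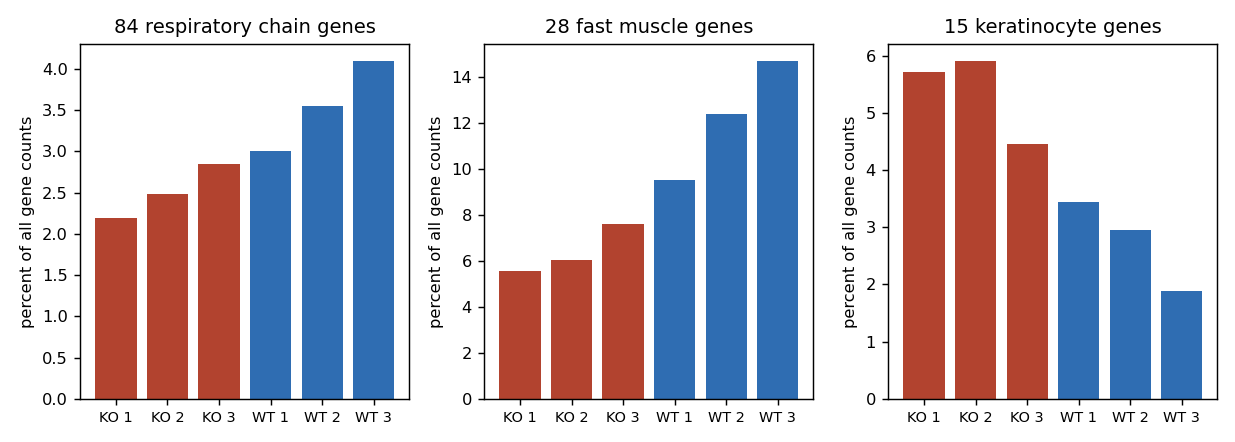
Percent of all gene counts held by the 84 respiratory chain genes, the 28 fast muscle genes and the 15 keratinocyte genes in each of the 6 libraries, as bars from 0. The members and the fast muscle genes are lowest in KO replicate 1 (2.19 and 5.56%) and highest in WT replicate 3 (4.10 and 14.7%), and the keratinocyte genes are lowest in WT replicate 3 (1.88%).

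Of 7 endothelial genes 3 passed, Cdh5, Kdr and Tie1, with a summed level of 294.5 to 353 CPM in KO-labelled tongues and 411 to 563 CPM in WT-labelled tongues and a median of -0.63. Of 7 fibroblast genes 2 passed, Col1a2 and Dpt, with sums of 932 to 1281 and 1458 to 1753 CPM and a median of -0.55. DESeq2 called 7 and 4 of them lower. None of these 14 was higher by edgeR, adjusted or not. For the muscle, endothelial and fibroblast lists too, 7.43% of all genes were lower by edgeR and 15.9% by DESeq2. Of 6 leukocyte, 6 adipocyte and 3 salivary gland genes tested, 0 passed by edgeR in either direction (1 leukocyte gene was higher at an unadjusted p under 0.05), and DESeq2 called 0 as well. The salivary genes Prol1, Dcpp1 and Dcpp2 were at 0 in all libraries, and of 8 slow muscle genes 0 passed by edgeR (2 lower at an unadjusted p under 0.05, and 1 lower by DESeq2). The part of these lists in the members' values was not tested.

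Lists of genes that build, feed and regulate the chain had medians below 0 as well. Of 41 tested assembly factors, which insert cofactors and join subunits, 11 were lower and 0 higher, with a median of -0.50. Taco1, an activator of mitochondrial COX1 translation, averaged 34.4 ± 4.78 CPM in KO-labelled and 66.9 ± 15.6 CPM in WT-labelled tongues (-0.96 ± 0.19, edgeR adjusted p = 0.0336). Tmem70, needed for ATP synthase assembly, averaged 65.0 ± 9.58 against 108 ± 14.3 CPM (-0.73 ± 0.15; SD, n = 3). Of 18 genes of pyruvate dehydrogenase and the citric acid cycle, 6 were lower and 0 higher, with a median of -0.79. They included both E1 subunits of pyruvate dehydrogenase, Pdha1 (-0.93 ± 0.22) and Pdhb (-0.98 ± 0.22).

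A list of 19 genes held those of ubiquinone synthesis and electron carriers, with Ndufab1 of complex I and Higd1a and Higd2a. Of the 19, 6 were lower and 0 higher, with a median of -0.62. Ndufab1, picked out after its values were seen, is outside the members' symbol rule. It stood at 4.84, 5.71 and 11.7 CPM in KO-labelled tongues and at 14.0, 12.5 and 23.1 CPM in WT-labelled tongues (-1.14 ± 0.37, edgeR adjusted p = 0.0710). Pdss2, which makes the ubiquinone tail, stood at 17.3 ± 1.77 CPM in KO-labelled tongues and 35.7 ± 10.5 CPM in WT-labelled tongues (-1.04 ± 0.22, edgeR adjusted p = 0.0356), and Coq10a at 247 ± 40.2 and 543 ± 194 CPM (-1.14 ± 0.27; SD, n = 3). Regulators of mitochondrial biogenesis were mixed, with 3 of 17 lower, 0 higher and a median of -0.41. Those lower were the mitochondrial rRNA methyltransferase Tfb1m (-0.90 ± 0.17, edgeR adjusted p = 0.0325), the coactivator Ppargc1b (-0.99 ± 0.21) and the nuclear receptor Esrrg, chosen after its values were seen (-0.93 ± 0.21). NRF1 and GABPA, 2 of the factors whose motifs were searched above, did not pass (chosen after their values were seen). Nrf1 stood at 37.5, 35.1 and 40.7 against 40.4, 36.9 and 34.4 CPM (0.019 ± 0.12), and Gabpa at 56.3, 58.6 and 57.2 against 61.1, 64.5 and 65.9 CPM (-0.15 ± 0.10). The coactivator Pprc1, also chosen after its values were seen, ran the other way at 130.1, 115 and 128 against 105, 81.2 and 56.7 CPM (0.62 ± 0.21, adjusted p = 0.0767 by edgeR and 0.0339 by DESeq2). Of 11 exchange, uncoupling and membrane channel genes 3 were lower and 0 higher, with a median of -0.55. They were the channel Vdac3 (-0.88 ± 0.20), the muscle mitochondrial creatine kinase Ckmt2 (-1.23 ± 0.29) and the uncoupling protein Ucp3, chosen after its values were seen (-2.86 ± 0.68). Ucp3 stood at 16.4, 17.7 and 12.3 CPM in KO-labelled tongues and at 33.1, 60.8 and 243 CPM in WT-labelled tongues, so WT replicate 3 stood far above the rest. All 5 lists stand beside the same 7.43% of genes called lower. Over all genes, edgeR called 6, 0 and 3 lower without KO replicates 1, 2 and 3, and 2938, 1 and 437 lower without WT replicates 1, 2 and 3.

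The authors' deposited table of all 6 libraries, from DESeq2, gave 59 of 81 members an adjusted p under 0.05 with lower values in KO-labelled tongues and 0 with higher values, where 16.3% of all genes with an adjusted p were lower. In the authors' deposited table without KO replicate 3 and WT replicate 2 the count was 18 of 80 (5.97% of all genes). In the authors' deposited table without KO replicate 3 and WT replicate 1 it was 75 of 81 (19.4% of all genes). These 3 tables share libraries and are not independent.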

How the data were processed

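Gene counts of 6 tongue libraries were used, grouped and numbered by the sample titles. The authors deposited raw counts of reads per gene in 3 tables, 1 of all libraries and 2 of 4 libraries each. The same deposited tables hold, per the file headers, a mean normalised count (a signal), a log2 fold change of WT over KO, a test statistic (a score), and a p-value, raw and adjusted. The submitters' processing notes name HTSeq and DESeq2, and hg19 and mm10. What each was used for, and which aligner, annotation and strand setting were used, is not given in the sources used here. Reads of overlapping genes cannot be told apart without strand.

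The edgeR 4.0.16 quasi-likelihood test (R 4.3.3; TMM scaling, robust, group as the only term) was run on genes passing filterByExpr (minimum count 10, minimum total 15). Benjamini-Hochberg adjustment covered all 15903 genes tested, and calls are at an adjusted p under 0.05. CPM use the TMM-scaled library size, and 1 CPM stands for 25.6 to 53.0 counts in a library. A fold change's standard error is its size over the root of the F statistic. DESeq2 1.42.0 and limma-voom (limma 3.58.1) had the same filtered counts. Values per library were compared by 2-sided exact permutation tests. The edgeR script was tested on simulated data. Near-identical copies come from blastn 2.17.0 of each member's longest open reading frame on GENCODE vM21 transcripts (identity of at least 95% over 90%), and 16 of the 84 members have at least 1. Exon lengths are from GENCODE vM21, which may not be the authors' annotation. Positions and promoters are RefSeq's for GRCm38.p6, and 69 members matched a promoter. Counting error alone sets the floors given.

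The members and the 14 gene lists were chosen with earlier results of these data known. The lists hold 226 symbols, of which 194 were in the table. The genes named are Elavl1, the isoform pairs, the 3 smallest p-values and the largest of each complex, the extreme fold changes, the other isoforms and up to 2 genes of each pathway list, plus those said to be chosen after their values were seen. The alternatives were other scaling, tests and filters, leaving out each library, the replicate number as a block, and muscle, keratinocyte or sex covariates.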

Additional observations from a re-analysis of the deposited data

How the results depend on the processing

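The direction of the members' median held under every scaling, test, filter and left-out library tried, and not under the muscle and keratinocyte covariates. Members lower numbered 6 with DESeq2 size factors, 59 with DESeq2, 15 with limma-voom and 15 with no filter on low counts. The shares of all genes called lower were 7.42, 15.9, 7.99 and 6.57% in the same order. DESeq2 gave 2472 genes lower and 1909 higher. Leaving out 1 library at a time, members lower ranged from 0 to 74, members higher from 0 to 1, genes lower from 0 to 2938 and genes higher from 0 to 2906. Cox6b2 ranged from -0.96 to 0.024 and Ndufa4l2 from -0.76 to 0.089, both above 0 with WT replicate 3 left out. With the fast muscle or keratinocyte covariate, 0 genes were lower and 0 higher by edgeR, and 0 members were lower. At an unadjusted p under 0.05 the genes lower and higher were 207 and 206, and 499 and 328. The cause was not tested.

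With the replicate number as a block (replicate block), 69 members were lower, with 2112 genes lower (13.3% of all genes) and 1705 higher. Deviations of same-numbered libraries correlated at 0.12, -0.16 and 0.19. The 0.19 of KO replicate 3 and WT replicate 3 was the largest of all pairs, while KO replicate 1 correlated most with WT replicate 2 (0.17). Deviations within a group are not independent of each other, so these correlations cannot settle whether same-numbered samples belong together. The labels give only the number.

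The fast muscle covariate gave a median of 0.14, with 68 of the 81 members above 0. The members' median standard error was 0.23 in this fit, and 0 members passed at an unadjusted p under 0.05, so the signs below are not settled. Genes chosen after their values were seen were not looked up in this fit. Of the other genes named in the report, those whose log2 fold change turned above 0 were Cox6a2 0.031, Cox7a1 0.069, Cox8b 0.45, Cox7a2 0.14, Ndufa7 0.39, Sdhd 0.12, Sdha 0.069, Uqcrfs1 0.0070, Uqcrq 0.086, Uqcrh 0.23, Atp5l 0.38, Cox4i1 0.047, Cox4i2 0.20, Cox6b1 0.28, Cox6b2 0.73, Cox7b 0.079, Ndufa4 0.36, Ndufa4l2 0.25, Atp5g1 0.19, Atp5g2 0.00098 and Atp5g3 0.074. The keratinocyte covariate gave a median of 0.082, with 56 of the 81 members above 0. Here the median standard error was 0.20, and again 0 members passed at an unadjusted p under 0.05. Of the same named genes, those that turned above 0 were Cox6a2 0.057, Cox7a1 0.049, Cox8b 0.38, Cox7a2 0.079, Ndufa7 0.35, Sdha 0.036, Uqcrq 0.087, Uqcrh 0.17, Atp5l 0.38, Cox4i2 0.14, Cox6b1 0.24, Cox6b2 1.05, Cox7b 0.042, Ndufa4 0.26, Ndufa4l2 0.70 and Atp5g1 0.082. With sex as a term, which set KO replicate 1 alone against the WT-labelled tongues, Cox8a was at -0.064. Depth limits the genes near 1 CPM, Atp5g2, Cox6b2 and Cox4i2, and Cox7b2 and Cox8c were under the test's filter.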

Other observations

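Another pair of mitochondrial isoforms outside the respiratory chain was picked out after its values were seen. Slc25a4, the ADP/ATP carrier of heart and skeletal muscle, stood at 1982, 2188 and 3077 CPM in KO-labelled tongues and at 3196, 4616 and 6418 CPM in WT-labelled tongues (log2 fold change -0.97 ± 0.33, edgeR adjusted p = 0.0768). Slc25a5, the carrier of proliferating and many other cells, stood at 153, 129.9 and 132 against 122, 102 and 77.3 CPM (0.46 ± 0.18, edgeR adjusted p = 0.0997). Neither passed, and neither overlapped between the groups. The log2 ratio of their counts within a library differed by -1.42 without overlap (exact permutation p = 0.1, 2-sided, the smallest 3 against 3 allow).

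The mitochondrial creatine kinases, also chosen after their values were seen, gave a like picture. Ckmt2, the sarcomeric form, stood at 1153, 1162 and 1619.7 CPM in KO-labelled tongues and at 2161, 3132 and 3965 CPM in WT-labelled tongues. Ckmt1, the ubiquitous form, stood at 163, 231 and 222 against 204, 140.5 and 109 CPM, with overlapping groups. The log2 ratio of Ckmt2 to Ckmt1 differed by -1.68 without overlap (exact permutation p = 0.1, 2-sided).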
